A study of Mus musculus with 4 samples.

Results

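A group of 5 receptor genes of the tumour necrosis factor receptor family was followed through a single-cell RNA-seq study of mouse thymic epithelial cells. They were Tnfrsf11a (RANK), Tnfrsf11b (osteoprotegerin, OPG), Cd40, Ltbr (lymphotoxin beta receptor) and Tnfrsf1a (TNF receptor 1). They were found by their symbols among the 31053 genes of the deposited matrices, all 5 were present, and their unique molecular identifiers (UMIs, each a counted mRNA molecule) were summed over marker-defined cell classes in each of 4 libraries. The wild-type libraries were WT-Control with WT-RANKL-Ab, those without Cd40 were Cd40-/- Control with Cd40-/- RANKL-Ab, and all came from C57BL/6 mice that were 6 weeks of age. Mice were wild-type (WT) or deficient in Cd40, and had received either a RANKL neutralizing antibody (RANKL-Ab, 5 mg/kg, under the skin) or control rat IgG at 4 weeks of age, 2 weeks before analysis. Cells were sorted as EpCAM+ CD45- TER119-. Each library pooled the thymi of 3 mice and each condition had 1 library, so no comparison has a replicate check, no p-value is given, and every interval covers counting error only.

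RANK and CD40 on medullary thymic epithelial cells (mTECs) receive RANKL and CD40 ligand from thymocytes and other lymphoid cells, and through TRAF adaptors and the kinase NIK they activate the RelB form of NF-κB that mTEC maturation and Aire expression need. OPG is a secreted decoy that binds RANKL and keeps it from RANK. The lymphotoxin beta receptor binds the membrane lymphotoxin complex and LIGHT and feeds the same NF-κB arm, while TNF receptor 1 binds TNF and soluble lymphotoxin and signals through the adaptor TRADD.

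On GRCm38, Tnfrsf11a lies on chromosome 1 from 105780718 to 105847981 on the plus strand, Cd40 on chromosome 2 from 165055627 to 165072948 on the plus strand, and Tnfrsf11b on chromosome 15 from 54250619 to 54278484 on the minus strand. Ltbr (125306571 to 125313885, minus strand) and Tnfrsf1a (125349362 to 125362484, plus strand) are both on chromosome 6, 35.5 kb apart. The promoters of Tnfrsf11a, Ltbr and Tnfrsf1a were taken from the RefSeq table of GRCm38.p6, which held no entry for Cd40 or Tnfrsf11b. The windows run from 250 bases before to 50 bases after the start site, 5′ to 3′ on the gene's strand. Ltbr and Tnfrsf1a are neighbours whose levels followed each other over the cell classes, and Tnfrsf11a did not follow them. Capitals mark the GC box GGGCGG on either strand. The Tnfrsf1a window begins at 125349473, inside the gene as placed above, and does not hold the start at 125349362. The windows of Tnfrsf11a and Ltbr hold the starts given for them.

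Tnfrsf11a, chr1:105780473-105780772, plus strand: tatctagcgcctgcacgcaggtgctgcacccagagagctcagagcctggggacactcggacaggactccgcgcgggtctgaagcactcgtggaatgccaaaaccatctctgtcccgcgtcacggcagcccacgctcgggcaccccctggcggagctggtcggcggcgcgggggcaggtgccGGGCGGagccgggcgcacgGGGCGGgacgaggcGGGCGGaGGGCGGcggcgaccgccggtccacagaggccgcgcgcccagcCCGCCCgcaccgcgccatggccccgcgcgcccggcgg
Ltbr, chr6:125313836-125314135, minus strand: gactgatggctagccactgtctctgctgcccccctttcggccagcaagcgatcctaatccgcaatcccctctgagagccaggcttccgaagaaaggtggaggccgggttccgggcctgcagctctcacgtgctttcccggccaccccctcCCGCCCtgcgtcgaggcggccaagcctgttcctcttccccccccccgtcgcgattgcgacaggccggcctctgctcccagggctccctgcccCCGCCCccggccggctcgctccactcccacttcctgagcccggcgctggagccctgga
Tnfrsf1a, chr6:125349473-125349772, plus strand: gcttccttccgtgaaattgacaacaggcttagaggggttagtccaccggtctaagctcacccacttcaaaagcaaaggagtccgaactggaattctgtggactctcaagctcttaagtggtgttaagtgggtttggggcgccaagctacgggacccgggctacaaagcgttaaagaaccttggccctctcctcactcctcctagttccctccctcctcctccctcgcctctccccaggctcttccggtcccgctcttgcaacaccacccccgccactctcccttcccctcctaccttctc

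The Tnfrsf11a promoter held 5 GC boxes, that of Ltbr held 2 and that of Tnfrsf1a held 0, and 35.7% of the 32851 promoters in the table held at least 1. GC content was 76.7% for Tnfrsf11a, 70.0% for Ltbr and 57.0% for Tnfrsf1a, against a median of 52.7% over all promoters. Searched on both strands, the AP-1 site TGANTCA (in 7.81% of all promoters), the NF-κB consensus site (8.46%) and the TATA box TATAAA (13.6%) had no match in these 3 windows.

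After filtering, WT-Control held 10218 cells with 95271992 UMIs and WT-RANKL-Ab 7164 cells with 48640152 UMIs. Without Cd40, the Control library held 8591 cells with 66291681 UMIs and the RANKL-Ab library 2082 cells with 19153317 UMIs, and medians were 6086 to 7621 UMIs per cell. Levels are UMIs of the gene per 1000000 UMIs of the class (CPM), with exact 95% Poisson intervals. Cd40-/- Control and Cd40-/- RANKL-Ab shared 205 cell barcodes (9.85% of the smaller library), while other pairs of libraries shared 0.817% to 1.42%. Of these, 182 held at least 10 times as many UMIs in Cd40-/- RANKL-Ab, and they made up 0.209% of the UMIs of Cd40-/- Control. Every receptor ratio of Cd40-/- Control against WT-Control that was recomputed without them stayed inside its interval. Classes were set by marker genes such as Ccl21a, Aire, Psmb11 or Gp2, and CCL21+ mTECs were further divided by Mgp and Gpx3. Aire+ mTECs numbered 2738 in WT-Control and 256 in WT-RANKL-Ab. Without Cd40 they numbered 1727 under Control and 3 under RANKL-Ab, so the last library gives no receptor level for them. Thymocyte-gated cells, which should hold little mRNA of RANK, OPG or CD40, serve as a reading of free RNA for these genes. In WT-Control that reading rests on 40 cells. Tnfrsf1a read 21.003 CPM (6.82 to 49.0) in these cells, 43.2 CPM (30.1 to 60.0) in those of WT-RANKL-Ab and 28.7 CPM (19.4 to 41.0) in those of Cd40-/- Control, and this is not taken as free RNA alone.

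Tnfrsf11a of WT-Control was above the thymocyte reading in most medullary classes, and was nearly missing from TEC progenitors. The level was highest in microfold-like mTECs, at 221.6 CPM (199.7 to 245.3), followed by enterohepatic-like mTECs at 116.3 CPM (102.5 to 131.5) and Aire+ mTECs at 108.0 CPM (104.5 to 111.6), whose intervals overlapped. It was 92.7 CPM (86.3 to 99.5) in Mgp/Gpx3-low and 57.1 CPM (53.1 to 61.3) in Mgp/Gpx3-high CCL21+ mTECs, intervals that did not overlap. In TEC progenitors it was 8.996 CPM (4.11 to 17.1), inside the interval of 4.58 to 43.0 CPM seen in thymocytes of the same library, as was the 35.2 CPM (24.2 to 49.4) of ciliated mTECs. That interval rests on 4 UMIs, all in a single cell (2.50% of 40), and does not hold as a range of free RNA. In cTECs Tnfrsf11a was 32.9 CPM, also inside that interval. The cTEC level moved to 15.3 CPM with gate limits multiplied by 2 and to 47.7 CPM with limits multiplied by 0.5, so no direction between libraries is drawn for Tnfrsf11a in cTECs.

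Tnfrsf11b, the decoy for RANKL, had most of its UMIs in few classes. Microfold-like mTECs had 628.7 CPM (591.5 to 667.7), and Aire+ mTECs came next at 108.1 CPM (104.5 to 111.7), with enterohepatic-like mTECs at 99.5 CPM (86.8 to 113.6) not separable from them. Only 219 cells of WT-Control were microfold-like, yet they held 16.5% of all Tnfrsf11b UMIs, and Aire+ mTECs held 55.2%. CCL21+ mTECs had 14.7 CPM (12.2 to 17.5) when Mgp/Gpx3-low and 12.1 CPM (10.3 to 14.1) when Mgp/Gpx3-high. Thymocytes of this library read 25.2 CPM (9.25 to 54.9) from 6 UMIs, all in a single cell (2.50% of 40). A Poisson interval does not hold for such a reading. The CCL21+ level is not above it, but ciliated mTECs read 1.07 CPM (0.0270 to 5.94) and thymocyte-cTEC complexes 0.952 CPM (0.0241 to 5.30). The part of free RNA in the CCL21+ level was not tested.

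Cd40 had its highest level in Aire+ mTECs, at 190.8 CPM (186.1 to 195.6), then in cycling Ccl21a-low cells at 133.6 CPM (125.7 to 141.9). Cortical epithelial cells (cTECs) followed at 116.2 CPM (100.9 to 133.3), an interval that overlapped that of the cycling cells. Microfold-like mTECs, the class highest in both RANK and OPG, had 62.2 CPM (50.9 to 75.3). CCL21+ mTECs had 45.7 CPM (41.2 to 50.6) when Mgp/Gpx3-low and 29.1 CPM (26.2 to 32.1) when Mgp/Gpx3-high. Progenitors, tuft-like and ciliated mTECs ranged from 15.99 to 24.99 CPM, inside the thymocyte interval of 6.82 to 49.0 CPM. Both CCL21+ levels also lay inside that interval, which rests on 5 UMIs in 7.5% of 40 cells. The part of free RNA in these levels was not tested.

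Ltbr and Tnfrsf1a showed another distribution, with low levels in the Aire lineage. Ltbr was 48.2 CPM (38.5 to 59.6) in cTECs and 41.0 CPM (29.4 to 55.6) in TEC progenitors, which were not separable (the cTEC level was 36.3 to 61.4 CPM with other gate limits), and 30.8 and 27.5 CPM in the Mgp/Gpx3-high and Mgp/Gpx3-low CCL21+ mTECs. It was 8.57 CPM (7.60 to 9.63) in Aire+ mTECs, inside the thymocyte interval of 0.106 to 23.4 CPM, which rests on 1 UMI. Tnfrsf1a was highest in TEC progenitors at 157.9 CPM (134.3 to 184.6), then in Mgp/Gpx3-high CCL21+ mTECs at 110.3 CPM (104.7 to 116.1) and Mgp/Gpx3-low CCL21+ mTECs at 75.9 CPM (70.1 to 82.1). Aire+ mTECs had 22.9 CPM (21.3 to 24.6) and cycling Ccl21a-low cells 18.3 CPM (15.4 to 21.5) of Tnfrsf1a. Over the 14 classes with at least 50 cells, log2(CPM + 10) of Ltbr and Tnfrsf1a had a Pearson r of 0.77 and that of Tnfrsf11a and Tnfrsf11b 0.72, while r of Cd40 with Tnfrsf1a was -0.39. These correlations are over classes of 1 library that share its free RNA, and describe it only.

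**Figure D1:**
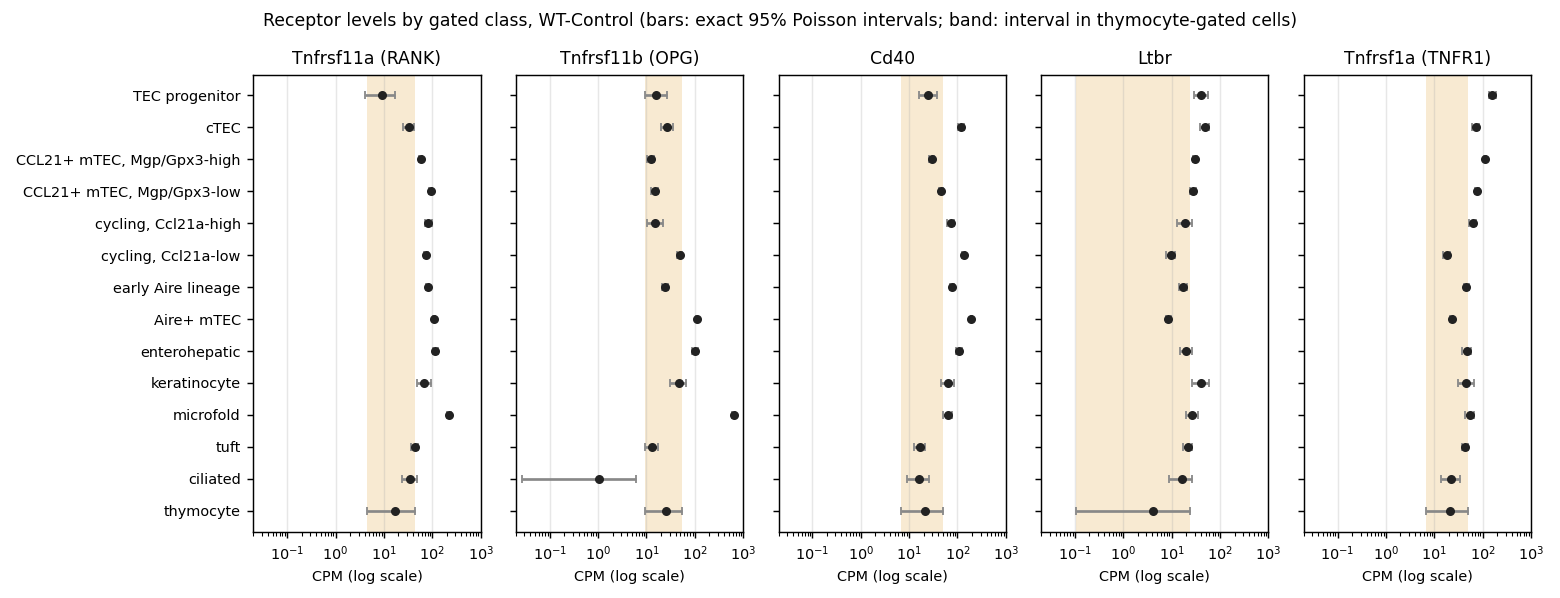
Level of each receptor gene (CPM, log axis) in the gated classes of WT-Control. Points are class sums, bars exact 95% Poisson intervals, and the band is the interval in thymocyte-gated cells. For Tnfrsf11a, Tnfrsf11b and Ltbr the band rests on a single cell. Tnfrsf11b reaches 628.7 CPM in microfold-like mTECs, Cd40 peaks in Aire+ mTECs at 190.8 CPM, and Tnfrsf1a peaks in TEC progenitors at 157.9 CPM.

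Along the Aire level of single cells the receptors separated gradually. Non-cycling medullary cells of WT-Control were divided by Aire UMIs per 10000, from 3205 cells under 0.5 to 692 cells at 10 or more. Cd40 was 35.7 CPM in the first bin and 85.0, 150.0, 202.0 and 238.5 CPM in the next 4. Tnfrsf11b was 11.9 CPM in the first bin and 144.3 CPM in the last, whereas Tnfrsf1a was 91.2 CPM in the first and 16.1 CPM in the last. Tnfrsf11a was 69.8 CPM in the first bin and stayed between 106.5 and 110.1 CPM from 2 Aire UMIs upward. In Cd40-/- Control the Tnfrsf11b level in the last bin was 187.1 CPM, and in WT-RANKL-Ab it was 27.6 CPM, from 61 cells.

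**Figure D2:**
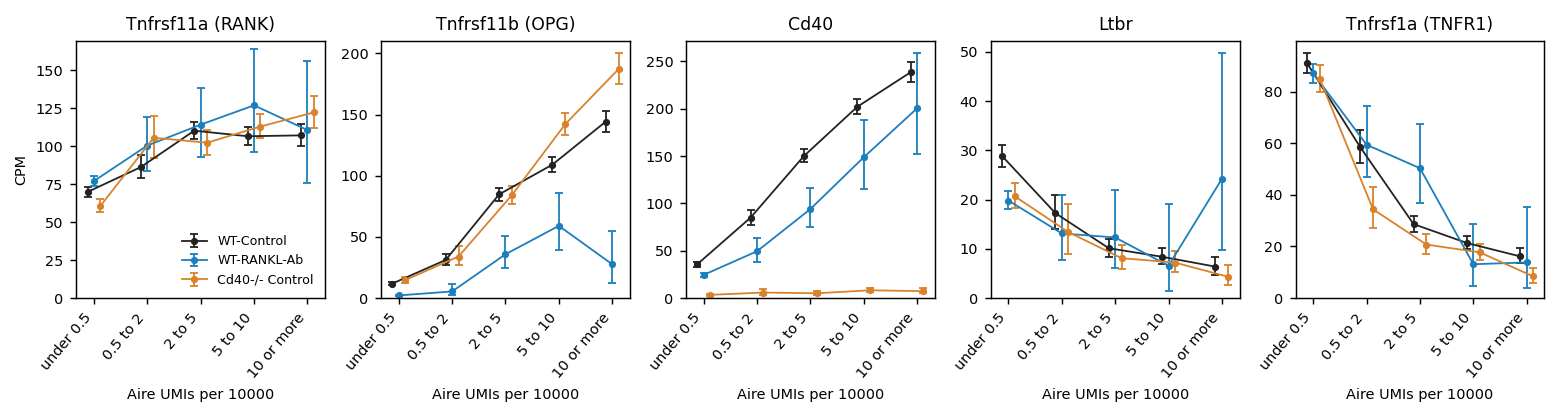
Level of each receptor gene (CPM) in non-cycling medullary cells binned by Aire UMIs per 10000 in WT-Control, WT-RANKL-Ab and Cd40-/- Control; bars are exact 95% Poisson intervals. Cd40 and Tnfrsf11b rise with Aire in WT-Control while Ltbr and Tnfrsf1a decline, and Tnfrsf11b is lower at every bin in WT-RANKL-Ab.

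The first comparison asks how the receptors stood in cells left after RANKL was blocked. Over all cells, Tnfrsf11b was 67.4 CPM in WT-Control and 7.18 CPM in WT-RANKL-Ab, a log2 ratio of -3.23 (-3.39 to -3.08). Cd40 was 110.0 CPM and 28.8 CPM, a log2 ratio of -1.94 (-2.02 to -1.85), and Tnfrsf11a was 87.6 CPM and 58.6 CPM (-0.58, -0.64 to -0.52). Ltbr was 18.6 CPM and 23.1 CPM (0.32, 0.21 to 0.43), and Tnfrsf1a was 48.1 CPM and 79.1 CPM (0.72, 0.65 to 0.78). Thus 2 of the 5 receptors passed a 2-fold difference, where 33.3% of all genes tested did. In bulk sums such as these, fewer cells of a class and less mRNA per cell cannot be told apart, and 34.4% of the UMIs of WT-Control but 3.37% of those of WT-RANKL-Ab came from Aire+ mTECs. Epcam, the epithelial gene used for the sort, was 834.2 CPM in WT-Control and 722.1 CPM in WT-RANKL-Ab. Markers of other cells also moved, with Lyz2 (macrophages) at 420.9 and 84.9 CPM, Cd79a (B cells) at 7.96 and 1.17 CPM and Hbb-bs (red cells) at 66.2 and 0.123 CPM, and their part in the receptor ratios was not tested.

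Reweighting the classes of WT-RANKL-Ab to their share of UMIs in WT-Control gave a log2 ratio of -0.06 (-0.18 to 0.06) for Tnfrsf11a, against -0.58 over all cells. With the makeup of WT-RANKL-Ab it was -0.09 (-0.17 to -0.02). Ltbr was -0.07 (-0.28 to 0.14) at the makeup of WT-Control and -0.29 (-0.42 to -0.17) at that of WT-RANKL-Ab. Tnfrsf11b stayed lower at -1.38 (-1.61 to -1.15) and Cd40 at -0.81 (-0.96 to -0.65), and Tnfrsf1a stayed higher at 0.36 (0.25 to 0.47), though it was 0.09 (0.02 to 0.17) at the makeup of WT-RANKL-Ab. The first set of ratios covered 16 classes and 96.0% of the UMIs of WT-Control. The Ltbr ratio over all cells depended on weighting cells by depth, since the mean over cells gave -0.06.

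Within classes, Cd40 was lower in WT-RANKL-Ab in all 6 classes followed here. It was 190.8 CPM in WT-Control and 128.0 CPM in WT-RANKL-Ab in Aire+ mTECs (log2 ratio -0.58, -0.78 to -0.38), and 116.2 and 48.7 CPM in cTECs (-1.26, -1.53 to -0.98). In the early Aire lineage it was 77.3 and 32.4 CPM (-1.25, -1.49 to -1.02). The level of WT-Control in that class depended on the gate, at 52.5 CPM with limits multiplied by 0.5, where the ratio was -1.002, and 107.4 CPM with limits multiplied by 2, and its median Ccl21a was 56.8 UMIs per 10000 in WT-Control and 195.0 in WT-RANKL-Ab. In CCL21+ mTECs it was 45.7 and 30.8 CPM when Mgp/Gpx3-low (-0.57, -0.79 to -0.34), and 29.1 and 17.2 CPM when Mgp/Gpx3-high (-0.76, -1.02 to -0.50). The thymocyte reading of Cd40 was 21.003 CPM (6.82 to 49.0) from 5 UMIs in WT-Control. In WT-RANKL-Ab it was 1.23 CPM (0.0312 to 6.87) from 1 UMI, and these intervals overlapped. The reading was lower in WT-RANKL-Ab, as were the CCL21+ levels, and the part of free RNA in them was not tested. In TEC progenitors Cd40 was 24.99 and 2.11 CPM, both inside the thymocyte interval of their library.

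Tnfrsf11b was lower still. In Aire+ mTECs, well above the thymocyte reading in both libraries, it was 108.1 CPM in WT-Control and 40.8 CPM in WT-RANKL-Ab (log2 ratio -1.40, -1.78 to -1.06). Microfold-like mTECs had 628.7 CPM in WT-Control and 243.3 CPM (183.8 to 316.0) in WT-RANKL-Ab, where they numbered 45. In Mgp/Gpx3-low CCL21+ mTECs it was 14.7 and 3.49 CPM (-2.07, -2.68 to -1.50) and in the Mgp/Gpx3-high class 12.1 and 1.63 CPM (-2.89, -3.71 to -2.17). The CCL21+ levels lay within or below the thymocyte intervals of 9.25 to 54.9 CPM and 0.0312 to 6.87 CPM. Each of these readings comes from a single thymocyte, so whether the differences are separable from that of free RNA cannot be said. Aire+ mTECs of WT-RANKL-Ab had a median of 4228 UMIs, against 11329 in WT-Control, and a median of 17.8 Ccl21a UMIs per 10000 against 2.41.

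Tnfrsf11a had ratios whose intervals held 0 in both CCL21+ classes, the early Aire lineage (-0.16, -0.35 to 0.02) and Aire+ mTECs. It was 92.7 CPM in WT-Control and 100.1 CPM in WT-RANKL-Ab in Mgp/Gpx3-low CCL21+ mTECs (log2 ratio 0.11, -0.03 to 0.25) and 57.1 and 62.7 CPM in the Mgp/Gpx3-high class (0.14, -0.02 to 0.29). In Aire+ mTECs it was 108.0 and 117.0 CPM (0.12, -0.10 to 0.33). The median gene of these CCL21+ classes was itself 0.15 and 0.14 higher on the log2 scale. Ltbr was lower in CCL21+ mTECs, at 27.5 and 18.4 CPM when Mgp/Gpx3-low (-0.58, -0.87 to -0.29) and 30.8 and 21.04 CPM when Mgp/Gpx3-high (-0.55, -0.79 to -0.31). Tnfrsf1a was 75.9 and 76.0 CPM in the first of these classes (0.00, -0.16 to 0.16) and 110.3 and 104.1 CPM in the second (-0.08, -0.20 to 0.03). In the early Aire lineage Tnfrsf1a was 45.7 and 69.3 CPM (0.60, 0.39 to 0.82), and the median Ccl21a of that class moved with it, from 56.8 to 195.0 UMIs per 10000. With gate limits multiplied by 0.5 and by 2 the ratio was 0.19 and 1.13, and the level of WT-Control 66.2 and 29.6 CPM. Tnfrsf11b alone passed 2-fold in each of these 3 classes, the CCL21+ pair and Aire+ mTECs, where 7.12% (Mgp/Gpx3-low), 6.06% (Mgp/Gpx3-high) and 24.8% (Aire+) of all genes tested did.

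**Figure D3:**
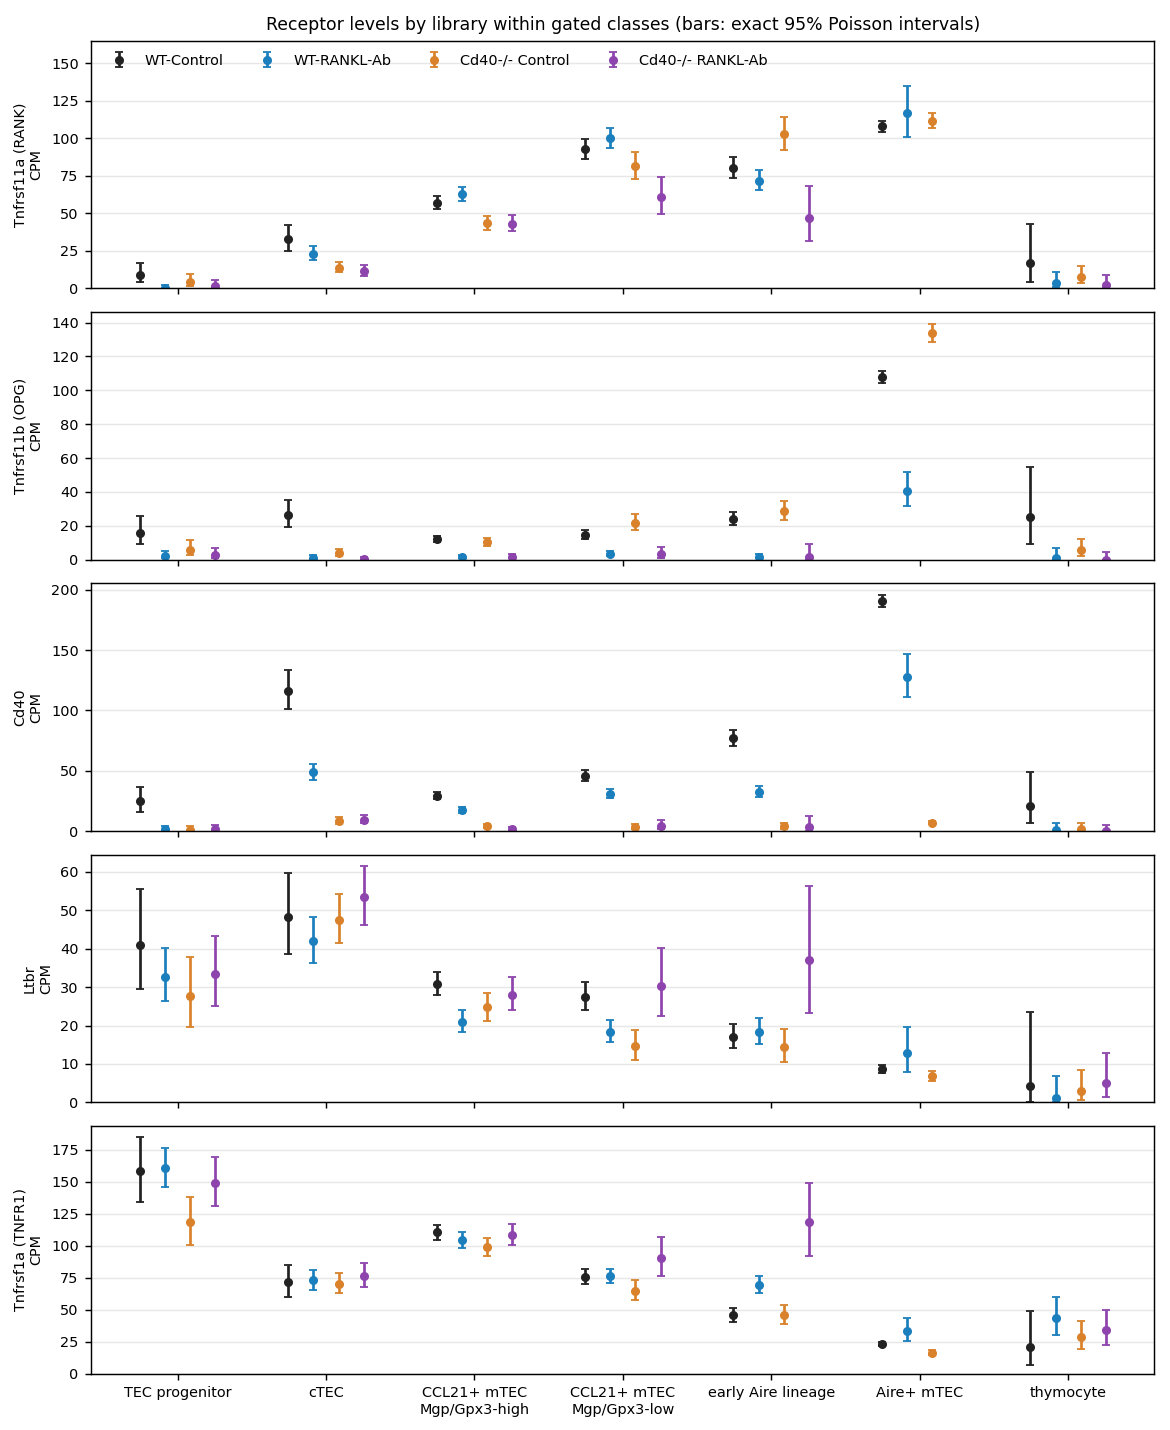
Level of each receptor gene (CPM) in 6 epithelial classes and in thymocyte-gated cells of the 4 libraries; bars are exact 95% Poisson intervals, and epithelial classes under 50 cells are left out. Cd40 is lower in WT-RANKL-Ab than in WT-Control in every class, Tnfrsf11b is at 108.1 and 40.8 CPM in Aire+ mTECs of these libraries, and Tnfrsf11a is at similar levels in WT-Control and WT-RANKL-Ab in CCL21+ and Aire+ mTECs.

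The second comparison concerns the loss of Cd40. In Cd40-/- Control the Cd40 gene gave 5.75 CPM (5.18 to 6.35), which is 5.22% of the level in WT-Control. With RANKL-Ab as well it gave 4.75 CPM (3.83 to 5.83), or 4.32%. The labels do not say which part of the gene was removed, so remaining UMIs cannot tell whether a shortened transcript is made. The remainder was not even over classes. In Cd40-/- Control it was 8.62 CPM (6.16 to 11.7) in cTECs, 9.72 CPM (7.40 to 12.5) in thymocyte-cTEC complexes and 6.89 CPM (5.71 to 8.25) in Aire+ mTECs, but 3.64 and 3.78 CPM in the Mgp/Gpx3-low and Mgp/Gpx3-high CCL21+ mTECs and 1.92 CPM (0.232 to 6.92) in thymocytes. In Cd40-/- RANKL-Ab, cTECs and the complexes read 9.40 CPM (6.51 to 13.1) and 9.23 CPM (6.18 to 13.3), and 69.2% of the 91 UMIs came from them.

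The other receptors stood close to WT-Control in Cd40-/- Control when all cells were summed. Tnfrsf11b was 68.7 CPM, against 67.4 CPM in WT-Control (log2 ratio 0.03, -0.03 to 0.08), and Tnfrsf11a was 87.6 and 76.6 CPM (-0.19, -0.25 to -0.14). Ltbr was 18.6 and 17.3 CPM (-0.10, -0.21 to 0.01) and Tnfrsf1a 48.1 and 43.8 CPM (-0.13, -0.20 to -0.07). Cd40 itself, which the genotype removes, was the single receptor past 2-fold, where 10.1% of all genes were. At the class makeup of WT-Control the log2 ratios were 0.05 (-0.00 to 0.10) for Tnfrsf11a, 0.28 (0.22 to 0.33) for Tnfrsf11b, -0.46 (-0.59 to -0.34) for Ltbr and -0.22 (-0.29 to -0.15) for Tnfrsf1a.

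Within classes OPG mRNA was higher without Cd40 in Aire+, microfold-like and cycling Ccl21a-low cells. Tnfrsf11b in Aire+ mTECs was 108.1 CPM with Cd40 and 133.7 CPM without it (log2 ratio 0.31, 0.23 to 0.38), 628.7 and 738.3 CPM in microfold-like mTECs (0.23, 0.09 to 0.37) and 48.1 and 80.2 CPM in cycling Ccl21a-low cells (0.74, 0.55 to 0.92). The median gene in Aire+ mTECs stood at 0.13, and with TMM factors the ratio in that class was 0.17. In microfold-like mTECs it was 0.084 with Leiden clusters and 0.078 with TMM factors. In enterohepatic-like mTECs Tnfrsf11b was 99.5 and 115.3 CPM (0.21, -0.15 to 0.57), and in cells that passed no gate, which held 8.10% of its UMIs in WT-Control, 52.9 and 55.4 CPM (0.07, -0.13 to 0.26). In Mgp/Gpx3-low CCL21+ mTECs it was 14.7 and 21.8 CPM (0.57, 0.16 to 0.98). It was lower in cTECs, with 47 UMIs in 145 cells and 18 UMIs in 583 cells (interval of the log2 ratio -3.65 to -1.97). The cTEC level of WT-Control, 26.6 CPM (19.6 to 35.4), lay inside the thymocyte interval of that library, and the part of free RNA was not tested. The cTEC ratio was -1.58 with gate limits multiplied by 0.5 and -3.75 as the mean over cells. With limits multiplied by 2 it was -4.24, and the level of WT-Control was 14.5 CPM. In TEC progenitors the interval of the log2 ratio was -2.89 to -0.15, and the sign changed with gate limits multiplied by 2. Tnfrsf11a was 221.6 and 275.8 CPM in microfold-like mTECs (0.32, 0.08 to 0.54) and 80.3 and 102.9 CPM in the early Aire lineage (0.36, 0.16 to 0.55), but 57.1 and 43.3 CPM in Mgp/Gpx3-high CCL21+ mTECs (-0.40, -0.59 to -0.21). The early lineage ratio was 0.061 with Leiden clusters and 0.16 with TMM factors, and the median Ccl21a of that class was 56.8 UMIs per 10000 with Cd40 and 34.3 without it. Markers of TEC progenitors, which had 8.996 CPM of Tnfrsf11a, had a median of 1.72 UMIs per 10000 in the Mgp/Gpx3-high class of WT-Control and 4.40 in that of Cd40-/- Control, and their part in the ratio was not tested. Ltbr was lower in CCL21+ mTECs, at 27.5 and 14.6 CPM when Mgp/Gpx3-low (-0.92, -1.35 to -0.50) and 30.8 and 24.7 CPM when Mgp/Gpx3-high (-0.32, -0.58 to -0.06). Tnfrsf1a in Aire+ mTECs was 22.9 and 16.4 CPM (-0.48, -0.69 to -0.28). Thymocytes read 21.003 and 28.7 CPM, which is not taken as free RNA alone. Again Cd40 alone, the gene removed, passed 2-fold in the Mgp/Gpx3-low, Mgp/Gpx3-high and Aire+ classes, beside 8.25%, 8.11% and 6.66% of all genes tested.

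With RANKL blocked and Cd40 lost, the sources of receptor mRNA differed from those in WT-Control. CCL21+ mTECs gave 75.7% of the Tnfrsf11a UMIs in Cd40-/- RANKL-Ab, against 18.2% in WT-Control and 55.1% in WT-RANKL-Ab, and cTECs with the complexes gave 51.2% of Ltbr, against 7.12% in WT-Control. Over all cells Tnfrsf11a was 25.5 CPM, a log2 ratio to WT-Control of -1.78 (-1.91 to -1.65). Tnfrsf11b was 1.78 CPM from 34 UMIs (-5.25, -5.78 to -4.76). Ltbr was higher at 37.7 CPM (1.02, 0.90 to 1.15) and Tnfrsf1a at 91.1 CPM (0.92, 0.84 to 1.00). Counting Cd40, which the genotype removes, 4 of the 5 receptors were past 2-fold, where 43.7% of all genes were, though as the mean over cells Ltbr was 0.56. Other cells moved too, with Lyz2 at 420.9 CPM in WT-Control and 3.86 CPM here, Epcam at 834.2 and 523.2 CPM, thymocytes at 0.2499% and 4.12% of the UMIs and thymocyte-cTEC complexes at 1.10% and 16.4%, and their part was not tested. At the class makeup of WT-Control, over the 11 classes and 49.2% of its UMIs that could be compared, the ratios were -1.13 (-1.31 to -0.95) for Tnfrsf11a, -3.03 (-3.79 to -2.27) for Tnfrsf11b, 0.35 (0.14 to 0.56) for Ltbr and 0.46 (0.34 to 0.58) for Tnfrsf1a. Cells that passed no gate entered these ratios, and in them Tnfrsf11a was 94.9 CPM in WT-Control and 2.94 CPM here, while the median of progenitor markers was 0 and 10.3 UMIs per 10000. Without them (an alternative added after seeing the data) the ratio was -0.68 for Tnfrsf11a, -3.20 for Tnfrsf11b, 0.22 for Ltbr and 0.24 for Tnfrsf1a. Weighted instead by the makeup of Cd40-/- RANKL-Ab, the ratio was 0.16 (-0.01 to 0.33) for Ltbr and 0.09 (-0.02 to 0.19) for Tnfrsf1a, so both held-makeup values lay below those over all cells.

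**Figure D4:**
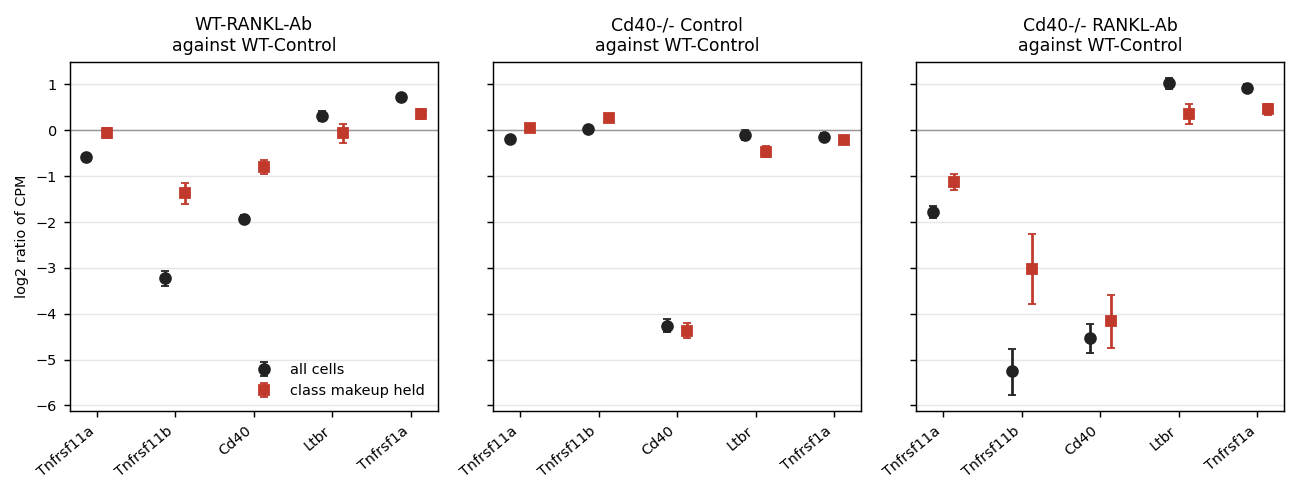
Log2 ratio of each receptor gene to WT-Control over all cells (circles, exact 95% intervals) and at the class makeup of WT-Control (squares, approximate 95% intervals). Tnfrsf11a in WT-RANKL-Ab goes from -0.58 to -0.06, while Tnfrsf11b and Cd40 stay below 0 at -1.38 and -0.81.

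In the surviving CCL21+ mTECs of Cd40-/- RANKL-Ab, Tnfrsf11a was 60.7 CPM when Mgp/Gpx3-low, against 92.7 CPM in WT-Control (log2 ratio -0.61, -0.93 to -0.31), and the ratio was -0.15 with Leiden clusters. In the Mgp/Gpx3-high class it was 43.1 against 57.1 CPM (-0.40, -0.61 to -0.20), a value next to the 43.3 CPM of Cd40-/- Control (-0.01 between the 2 libraries, -0.24 to 0.23). Progenitor markers in these classes had medians of 4.05 and 10.8 UMIs per 10000, against 0 and 1.72 in WT-Control, and their part was not tested. Ltbr was 30.4 CPM in the Mgp/Gpx3-low class and 28.1 CPM in the Mgp/Gpx3-high class, with log2 ratios to WT-Control of 0.14 (-0.33 to 0.59) and -0.13 (-0.39 to 0.13). Tnfrsf1a was 90.5 and 108.2 CPM, with ratios of 0.25 (-0.02 to 0.52) and -0.03 (-0.16 to 0.10). Tnfrsf11b was 3.10 and 1.90 CPM, inside the interval of 0 to 4.68 CPM that no UMI in 160 thymocytes allows. Tnfrsf11b and Cd40, the latter removed by the genotype, were the 2 receptors past 2-fold in both classes, beside 14.5% of all genes tested in the Mgp/Gpx3-low and 11.5% in the Mgp/Gpx3-high class. In the 77 cells of the early Aire lineage, Tnfrsf11a was 47.2 CPM (-0.77, -1.37 to -0.22), Ltbr 37.1 CPM (1.12, 0.39 to 1.78) and Tnfrsf1a 118.1 CPM (1.37, 0.98 to 1.75). The median Ccl21a of that class was 266.7 UMIs per 10000, against 56.8 in WT-Control, and its part in these ratios was not tested. In TEC progenitors and cTECs, Tnfrsf1a and Ltbr of Cd40-/- RANKL-Ab had intervals of the ratio to WT-Control that held 0. Against Cd40-/- Control, Ltbr in the Mgp/Gpx3-low class was 30.4 and 14.6 CPM (1.06, 0.49 to 1.63) and Tnfrsf1a 90.5 and 64.8 CPM (0.48, 0.18 to 0.78).

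**Figure D5:**
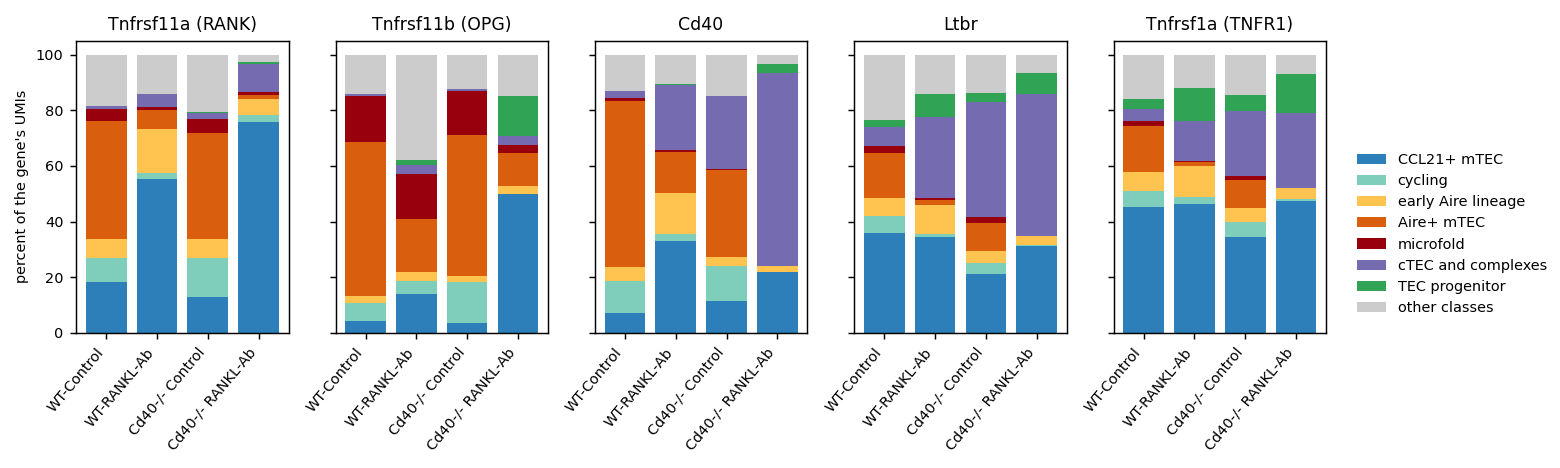
Share of each receptor gene's UMIs (percent) contributed by cell classes in each library; each bar sums to 100%. Aire+ and microfold-like mTECs give 55.2% and 16.5% of Tnfrsf11b in WT-Control, and CCL21+ mTECs give 75.7% of Tnfrsf11a in Cd40-/- RANKL-Ab.

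To compare detection in single cells, each was thinned to 1000 UMIs. In WT-Control, 10.6% of 2738 Aire+ mTECs (Clopper-Pearson 95% interval, 9.46 to 11.8%) then held a Tnfrsf11a UMI, and 60.8% did unthinned at a median of 11329 UMIs. The thinned shares were 17.8% in microfold-like and 7.88% in Mgp/Gpx3-low CCL21+ mTECs, and 0 of 40 thymocytes (an upper interval limit of 8.81%). Tnfrsf11b was found in 38.8% (32.3 to 45.6%) of microfold-like and 9.39% of Aire+ mTECs but 1.11% of Mgp/Gpx3-low CCL21+ mTECs, with 0 of 40 thymocytes, whose median depth was 2590 UMIs and of which 2.50% held a UMI unthinned. Cd40 was found in 16.8% (15.4 to 18.3%) of Aire+ mTECs, against 2 of 40 thymocytes (5%, 0.611 to 16.9%).

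Detection of 1 receptor in a cell was set beside detection of another after this thinning. In Aire+ mTECs of WT-Control, 16.2% (12.2 to 20.96%) of the 290 cells with a Tnfrsf11a UMI had a Cd40 UMI, and 16.9% (15.4 to 18.4%) of the cells without did. In WT-RANKL-Ab the shares in that class were 24.0% (9.36 to 45.1%) of 25 cells and 8.66% (5.37 to 13.1%). In microfold-like mTECs of WT-Control 0 of 39 cells with Tnfrsf11a had Cd40 (0 to 9.03%), against 5.0% (2.31 to 9.28%) of the others, and these intervals overlapped. In Aire+ mTECs of WT-Control 13.1% (9.44 to 17.5%) of the cells with a Tnfrsf11a UMI had a Tnfrsf11b UMI, against 8.95% (7.84 to 10.1%) of the others. In microfold-like mTECs the shares were 56.4% (39.6 to 72.2%) and 35.0% (28.1 to 42.4%), and the intervals overlapped in both classes. In Aire+ mTECs of Cd40-/- Control the shares were in the other order, at 10.1% (6.20 to 15.3%) and 11.5% (9.95 to 13.2%). In microfold-like mTECs of that library they were 54.5% (36.4 to 71.9%) and 40.8% (32.0 to 50.2%). In Mgp/Gpx3-low CCL21+ mTECs of WT-Control, 5.43% (1.79 to 12.2%) of the 92 cells with Tnfrsf11a had Tnfrsf11b, against 0.744% (0.322 to 1.46%) of the others, so that these intervals, resting on 5 cells with both, did not overlap. In the same class of WT-RANKL-Ab the shares were 0.625% (0.0158 to 3.43%) of 160 cells and 0.598% (0.258 to 1.17%).

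The other genes of the pathway were 7 ligands, 20 further receptors, and 21 adaptors and kinases. Of these 48 genes, 47 had at least 50 UMIs over all cells of WT-RANKL-Ab and WT-Control together. Of them, 3 were higher by 2-fold or more in WT-RANKL-Ab and 9 were lower, where 33.3% of all genes passed 2-fold, with a median log2 ratio of -0.08, against 0.06 over all 18357 genes tested. In Cd40-/- Control 2 were higher and 1 lower (median 0.10, all genes 0.10), beside 10.1% of all genes, and in Cd40-/- RANKL-Ab 4 were higher and 15 lower (median -0.36, all genes 0.01), beside 43.7%. The ligand genes Tnfsf11 (RANKL) and Cd40lg were almost missing from epithelial cells, at 0.840 and 0.0735 CPM over WT-Control. Ltb, a subunit of the lymphotoxin ligand, was 102.1 CPM in Aire+ mTECs and 151.2 CPM in thymocytes.

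Within CCL21+ mTECs of WT-RANKL-Ab, no gene of the pathway list was 2-fold higher in either class, 7 of 36 were lower when Mgp/Gpx3-low and 3 of 33 when Mgp/Gpx3-high, beside 7.12% and 6.06% of all genes past 2-fold either way. Tnfrsf12a, the receptor for TWEAK, was lower in both, with log2 ratios of -1.12 and -1.39. Traf1, an adaptor induced by NF-κB, was -1.18 and -0.73, and the death receptor gene Fas was -1.03 and -0.51. In Cd40-/- Control the ligand gene Ltb was -1.62 in the Mgp/Gpx3-low and -2.09 in the Mgp/Gpx3-high class, and Traf2 was -1.002 and -0.78. The kinase gene Map3k14 (NIK) was 0.65 (0.39 to 0.90) and 0.14 (-0.08 to 0.37) in WT-RANKL-Ab, and -0.06 and -0.33 in Cd40-/- Control.

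Among 5827 genes searched over the 14 classes of WT-Control, those most like Tnfrsf11a were Stap2 (r = 0.90), Glipr2 (0.90), Msln (0.89), Extl1 (0.88) and Nans (0.88), all highest in microfold-like mTECs and lowest in progenitors. Those most like Tnfrsf11b were Nsmce3 (0.95), Opn3 (0.94), Chml (0.93), A730036I17Rik (0.93) and Gda (0.93). Cd40 was most like S100a14 (0.92), Relb (0.91), Coro1a (0.90), Tdh (0.89) and Gadd45b (0.89), of which Relb encodes the NF-κB subunit of the pathway. Ltbr was most like Usp25 (0.92), Hcfc1r1 (0.89), Vat1 (0.89), Lrp6 (0.88) and Ablim1 (0.88), and Tnfrsf1a most like Sp100 (0.95), Nfe2l2 (0.94), Aph1a (0.93) and Myl6 (0.92). In Cd40-/- Control, the r of these genes with Tnfrsf11a, Tnfrsf11b, Ltbr and Tnfrsf1a ranged from 0.67 (Vat1) to 0.96 (Myl6).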

How the data were processed

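Thymic epithelial cells were profiled by droplet single-cell RNA-seq, and the authors deposited, per library, a filtered matrix of UMI counts per gene and barcode. The labels name Cell Ranger 5.1 and mm10. Barcodes under 200 detected genes were dropped, as in the study. Its mitochondrial limit varied from 13% to 25%, and here 25% was used for every library, with 13% as an alternative. Doublets were not removed by a caller. Classes were gated on marker UMIs per 10000, and cells under 1000 UMIs or passing no gate were kept as classes of their own. The members, the lists and the markers were chosen with earlier results of these data known, and the gate limits were set after the clusters and receptor values were seen. For each receptor 5 genes were named for likeness, those with the highest Pearson r over classes of log2(CPM + 10). For Tnfrsf1a, 1 of these is not reported here. CPM carry exact Poisson intervals, log2 ratios exact conditional binomial intervals, ratios at held makeup approximate ones, and shares Clopper-Pearson intervals, all at 95%. A gene counted as past 2-fold when both libraries together held at least 50 UMIs. Scripts used Python 3.11.15, scipy 1.17.1, scanpy 1.11.5, leidenalg 0.10.2 and edgeR 4.0.16 (TMM factors only), and were tested on simulated data.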

Additional observations from a re-analysis of the deposited data

Results flagged for a closer look

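Some differences pointed in opposite directions under the same contrast in another background, with intervals on either side of 0. The differences between the effects were not tested, since each condition had 1 library. Ltbr in Mgp/Gpx3-low CCL21+ mTECs had a log2 ratio of -0.58 for RANKL-Ab against Control in wild-type mice and 1.06 in Cd40-/- mice. For Cd40-/- against wild type the same class gave -0.92 under Control and 0.72 under RANKL-Ab. In Mgp/Gpx3-high CCL21+ mTECs the Cd40-/- against wild-type ratio of Ltbr was -0.32 under Control and 0.42 under RANKL-Ab, and in cells that passed no gate it was -0.57 and 1.02. Tnfrsf11a in the early Aire lineage was 0.36 under Control and -0.60 under RANKL-Ab, and in cells that passed no gate 0.28 and -4.71. In the early Aire lineage 0.36 became 0.061 with Leiden clusters and 0.16 with TMM factors, and the median Ccl21a of that class was 56.8 UMIs per 10000 in WT-Control, 34.3 in Cd40-/- Control, 195.0 in WT-RANKL-Ab and 266.7 in Cd40-/- RANKL-Ab. In cells that passed no gate, markers of TEC progenitors had a median of 10.3 UMIs per 10000 in Cd40-/- RANKL-Ab and the Mgp/Gpx3 set 7.38, and both had 0 in the other 3 libraries. The part of these in the ratios was not tested.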

How the results depend on the processing

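No paired analysis was possible because each condition had 1 library, so no replicate could be left out either. Limits of 13% mitochondrial UMIs, at least 2000 UMIs per cell, totals without markers and mitochondrial genes, and removal of the cells of Cd40-/- Control also found in Cd40-/- RANKL-Ab (chosen after seeing the data) left every recomputed ratio inside its interval. The values below are log2 ratios to WT-Control that moved outside it over all cells, at held makeup or in a class described above. Some other ratios within classes moved too and are not given singly. The cause was not tested.

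As the mean over cells, Ltbr over all cells changed sign in WT-RANKL-Ab to -0.061. Without Cd40, it was -0.30 for Control and 0.56 for RANKL-Ab. Tnfrsf1a over all cells was 0.43 in WT-RANKL-Ab, and without Cd40 -0.23 for Control and 0.72 for RANKL-Ab. Tnfrsf11b was -2.67 and Cd40 -1.79 in WT-RANKL-Ab, and Cd40 was -4.85 in Cd40-/- RANKL-Ab. In Aire+ mTECs of WT-RANKL-Ab, Cd40 was -0.84, Tnfrsf11a -0.12 and Tnfrsf11b -1.86, and Tnfrsf11b was 0.21 in Cd40-/- Control. Tnfrsf11b was -0.96 in Mgp/Gpx3-low and -2.15 in Mgp/Gpx3-high CCL21+ mTECs of WT-RANKL-Ab, and -1.78 in the latter class of Cd40-/- RANKL-Ab.

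With TMM factors, Cd40-/- Control over all cells was -4.44 for Cd40, -0.28 for Ltbr, -0.38 for Tnfrsf11a, -0.16 for Tnfrsf11b and -0.32 for Tnfrsf1a. In its Aire+ mTECs Tnfrsf11a was -0.088 and Tnfrsf11b 0.17, and Tnfrsf1a in Mgp/Gpx3-high CCL21+ mTECs was -0.33, and -0.21 in WT-RANKL-Ab. Without thymocytes and complexes, Tnfrsf11a over all cells was -0.46 in WT-RANKL-Ab, and without Cd40 -0.065 for Control and -1.49 for RANKL-Ab, while Cd40-/- Control had -0.28 for Ltbr and 0.17 for Tnfrsf11b, and Cd40-/- RANKL-Ab 1.06 for Tnfrsf1a.

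With the makeup of the library compared, WT-RANKL-Ab had -1.02 for Cd40, -0.29 for Ltbr, -1.85 for Tnfrsf11b and 0.094 for Tnfrsf1a. Cd40-/- Control had -4.18 for Cd40 and -0.33 for Ltbr, and Cd40-/- RANKL-Ab had -3.50 for Cd40, -0.87 for Tnfrsf11a and 0.086 for Tnfrsf1a. At held makeup, gate limits multiplied by 0.5 gave 0.069 for Tnfrsf11a in WT-RANKL-Ab, and -0.92 for Tnfrsf11a and 0.33 for Tnfrsf1a in Cd40-/- RANKL-Ab. Limits multiplied by 2 gave -0.19, -1.40 and 0.77 for these, and 0.39 and 0.11 for Tnfrsf11b in Aire+ and Mgp/Gpx3-low CCL21+ mTECs of Cd40-/- Control. They also changed signs in TEC progenitors, to 0.65, 2.26 and 0.21 for Tnfrsf11b in WT-RANKL-Ab and then the Control and RANKL-Ab libraries without Cd40, and to 0.21 for Tnfrsf11a in the last. In the early Aire lineage, limits multiplied by 0.5 gave 0.19 for Tnfrsf1a and -1.002 for Cd40 in WT-RANKL-Ab and 0.71 for Tnfrsf1a in Cd40-/- RANKL-Ab, and limits multiplied by 2 gave 1.13 for Tnfrsf1a in WT-RANKL-Ab, where the mean over cells gave 0.39. Without cells that passed no gate (chosen after seeing the data), the held ratio in Cd40-/- RANKL-Ab was -0.68 for Tnfrsf11a and 0.24 for Tnfrsf1a, and the other held ratios stayed inside their intervals.

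With Leiden clusters in place of gates, Tnfrsf11a in cTECs changed sign to 2.49, 1.53 and 1.72 in the 3 libraries. In Aire+ mTECs Ltbr was -0.61 and Tnfrsf11b -0.85 in WT-RANKL-Ab, and Tnfrsf11a 0.16 in Cd40-/- Control. In Mgp/Gpx3-low CCL21+ mTECs Tnfrsf11a was 0.16 for Control and -0.15 for RANKL-Ab without Cd40, Tnfrsf11b -2.77 in WT-RANKL-Ab, and Tnfrsf1a -0.22 with RANKL-Ab in wild-type mice and -0.55 in Cd40-/- Control. Tnfrsf11b in Mgp/Gpx3-high CCL21+ mTECs of Cd40-/- Control was 0.41. In the early Aire lineage Tnfrsf11a was 0.061 in Cd40-/- Control (0.16 with TMM factors) and 0.035 in WT-RANKL-Ab. Tnfrsf11b in microfold-like mTECs of Cd40-/- Control was 0.084 (0.078 with TMM factors), and Cd40 in cTECs of WT-RANKL-Ab -0.88.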
